A study of Rattus norvegicus with 16 samples.

Results

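The genes of the proteasome were followed across 6 groups of rats in a study of traumatic brain injury (TBI) and of 3 compounds given after it. Members were taken by name: every probe outside the array's controls whose gene name is Psm, a letter from a to g and a number. The rule found 45 of the 26583 gene names on the array, with 1 value per gene from its brightest probe. Of these, 5 (Psmb8, Psmb9, Psmb10, Psme1 and Psme2) encode parts of the interferon-inducible form, the immunoproteasome. The other 40, parts of the particle or its helpers, are called constitutive below. Psmb11, which encodes a thymus-specific subunit, is counted with them.

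RNA came from the whole hippocampus of Sprague-Dawley rats, described in the study's methods as adult males, 24 h after injury or the matching time point, and each of the 16 single-colour Agilent arrays held the RNA of 1 rat. The Naive group (n = 3) had neither surgery nor injury, and the Sham group (n = 2) was anesthetized and prepared for injury without receiving it. The TBI group (n = 3) received a parasagittal fluid percussion injury and no drug. The other groups received the same injury and then, by the doses in the methods, PMI-006 at 250 mg/kg by mouth (n = 3), JM6 at 400 mg/kg by mouth (n = 3) or estradiol, called E2, at 33 ug/kg by injection (n = 2). All 8 drug-treated rats were injured, and no uninjured rat received a drug. The methods name 3 rats a group, so 1 Sham and 1 E2 array were not analysed here.

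The proteasome is the chamber in which cells cut up proteins tagged with ubiquitin. A barrel of alpha and beta rings holds the cutting sites, and a regulatory cap with ATPase and non-ATPase subunits recognises, unfolds and feeds in the substrate. Interferons induce Psmb8, Psmb9 and Psmb10, which take the places of the catalytic subunits Psmb5, Psmb6 and Psmb7 in newly built barrels, and Psme1 and Psme2, whose products form an alternative cap. In the brain this form is best known from microglia and invading immune cells, where its products feed antigen presentation on class I molecules.

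The 60-base probes of the first catalytic pairs are printed because every value below rests on such a probe. Each is written 5′ to 3′ as on the array, and the capitals mark the longest run of bases shared within a pair.
Psmb8: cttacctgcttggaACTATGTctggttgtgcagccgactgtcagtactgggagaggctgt
Psmb5: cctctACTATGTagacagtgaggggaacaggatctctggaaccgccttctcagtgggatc
Psmb9: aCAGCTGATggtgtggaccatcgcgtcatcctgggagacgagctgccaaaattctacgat
Psmb6: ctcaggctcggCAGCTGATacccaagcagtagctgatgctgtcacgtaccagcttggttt
The shared run was 7 bases for Psmb8 and Psmb5 and 8 bases for Psmb9 and Psmb6. The longest run shared by any 2 of the 45 brightest probes was 12 bases, between Psmd2 and Psmg1. In the rat build rn4, which the scanner files use, the Psmb8 probe lies at chr20:4787980-4788039 on the minus strand and the Psmb9 probe at chr20:4806341-4806400 on the plus strand. The Psmb5 probe lies at chr15:32690134-32690193 on the minus strand and the Psmb6 probe at chr10:57371368-57371427 on the plus strand. Exons and introns of that build were not used here.

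Promoter stretches of 4 inducible genes are shown because their letters can be set beside the levels. RefSeq windows on the build GRCr8, from 250 bases before to 50 bases after a gene's start, matched 40 of the 45 members by symbol. They were searched on both strands for the interferon-stimulated response element (ISRE) letters GAAANNGAAA, the interferon-gamma activated site (GAS) letters TTCNNNGAA and the antioxidant response element (ARE) letters TGACNNNGC. Capitals mark ISRE and GAS letters below, and no matches of different motifs overlapped among the members.
Psmb8 (chr20:4657022-4657281, minus strand): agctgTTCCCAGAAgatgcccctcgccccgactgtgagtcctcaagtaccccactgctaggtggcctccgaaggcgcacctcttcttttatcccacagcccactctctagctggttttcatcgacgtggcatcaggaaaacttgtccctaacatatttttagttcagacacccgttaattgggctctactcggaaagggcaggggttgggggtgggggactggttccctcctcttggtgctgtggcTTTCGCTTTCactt
Psmb9 (chr20:4668870-4669009, plus strand): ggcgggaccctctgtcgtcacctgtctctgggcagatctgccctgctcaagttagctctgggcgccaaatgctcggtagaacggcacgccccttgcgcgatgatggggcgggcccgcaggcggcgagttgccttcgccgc
Psmb10 (chr19:50743283-50743422, minus strand): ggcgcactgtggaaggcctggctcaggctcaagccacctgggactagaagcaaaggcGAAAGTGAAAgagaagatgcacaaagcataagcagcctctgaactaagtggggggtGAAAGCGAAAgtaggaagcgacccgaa
Psme2 (chr15:33052742-33052881, minus strand): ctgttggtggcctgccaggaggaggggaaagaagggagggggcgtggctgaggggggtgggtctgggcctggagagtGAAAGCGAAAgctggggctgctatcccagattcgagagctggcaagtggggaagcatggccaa
ISRE letters stood in 3 of the 5 inducible windows (Psmb8, Psmb10 and Psme2), in 4 of 35 constitutive windows and in 3.92% of all 33469 windows. GAS letters stood in 1 of 5 (Psmb8), in 3 of 35 and in 8.87%. ARE letters stood in 0 of 5, in 8 of 35, Psmb5 and Psmb6 among them, and in 12.1%. The Psmb9 window held neither ISRE nor GAS letters. Psmb9 starts 457 bases from the start of Tap1, a peptide transporter gene read in the opposite direction, and ISRE letters stood between the starts, 336 bases from that of Psmb9. These matches describe letters, and binding was not measured.

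Before the results, some facts of the arrays bear on every comparison. The Naive, Sham and TBI arrays were scanned on 1 day and the 8 drug arrays on another, so any difference between a drug group and TBI cannot be told apart from the scanning day. Between 16282 and 18245 probes were well above background on the Naive, Sham and TBI arrays, against 20259 to 24984 on the drug arrays. The 3 dimmest spike-in control probes read 2.01 to 4.29 on the log2 intensity scale on the former arrays and 3.39 to 6.40 on the latter. Of the 22827 probes tested, those of all 45 members passed the filter on dim probes, 38 of them above background on all 16 arrays. Spots flagged as outliers gave no value: Psmb1 had none in either Sham array, so comparisons with Sham cover 44 members. The summed level of 6 choroid plexus genes ranged from 0.191 to 151 across the arrays. Hippocampus and neurons were represented on each array, with at least 4 of 5 hippocampal field markers and 5 of 5 neuronal markers above background. Levels below are log2 intensities relative to the 75th percentile of an array's probes above background, and they compare 1 probe across arrays, never 2 genes.

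Every inducible gene had a higher mean in TBI than in Sham and in Naive rats, but the 3 injured rats did not agree and no difference passed the test. Psmb8, the inducible counterpart of the chymotrypsin-like subunit, read -2.43, -2.54 and -2.85 in Naive rats 1 to 3. It read -1.74 and -0.60 in the Sham rats and -2.14, 0.07 and -0.18 in TBI rats 1 to 3. TBI rat 1 thus lay above the Naive rats but below both Sham rats, while the other two lay above all 5. The log2 fold change for Psmb8 was 1.86 ± 0.50 (SE) against Naive (limma, adjusted p = 0.0546) and 0.42 ± 0.56 against Sham (adjusted p = 0.678). The former passed the test in 6 of 22 alternatives, of which the difference within a slide was not tested. Among the 6 were scaling to the spike-in controls (limma, adjusted p = 0.0339) and keeping probes above background on all 16 arrays (adjusted p = 0.026).

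Psmb9, the inducible caspase-like counterpart, was likewise lowest in TBI rat 1 among the injured rats. It read -0.70, -1.04 and -1.43 in Naive, -1.67 and -0.37 in Sham, and -1.06, 0.64 and 0.71 in TBI rats. The mean difference was 1.12 ± 0.50 against Sham (limma, adjusted p = 0.181) and 1.15 ± 0.45 against Naive (adjusted p = 0.163). Psmb10, the inducible trypsin-like counterpart, moved least, at 1.001, 0.96 and 0.95 in Naive, 0.63 and 1.23 in Sham, and 0.87, 1.65 and 1.38 in TBI rats. Its fold changes were 0.37 ± 0.24 against Sham and 0.33 ± 0.21 against Naive.

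The 2 cap genes followed. Psme1 read 1.79, 2.06 and 1.61 in Naive, 1.503 and 2.14 in Sham, and 1.95, 2.89 and 2.61 in TBI rats. Psme2 read 0.66, 0.99 and 0.51 in Naive, 0.64 and 1.14 in Sham, and 0.80, 1.98 and 1.62 in TBI rats. For both, TBI rat 1 again lay within the range of the uninjured rats and TBI rats 2 and 3 above it. Psme1 differed by 0.66 ± 0.27 from Sham (limma, adjusted p = 0.138) and by 0.66 ± 0.24 from Naive (adjusted p = 0.136). Psme2 differed by 0.57 ± 0.30 from Sham (limma, adjusted p = 0.246) and by 0.74 ± 0.27 from Naive (adjusted p = 0.129).

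**Figure D1:**
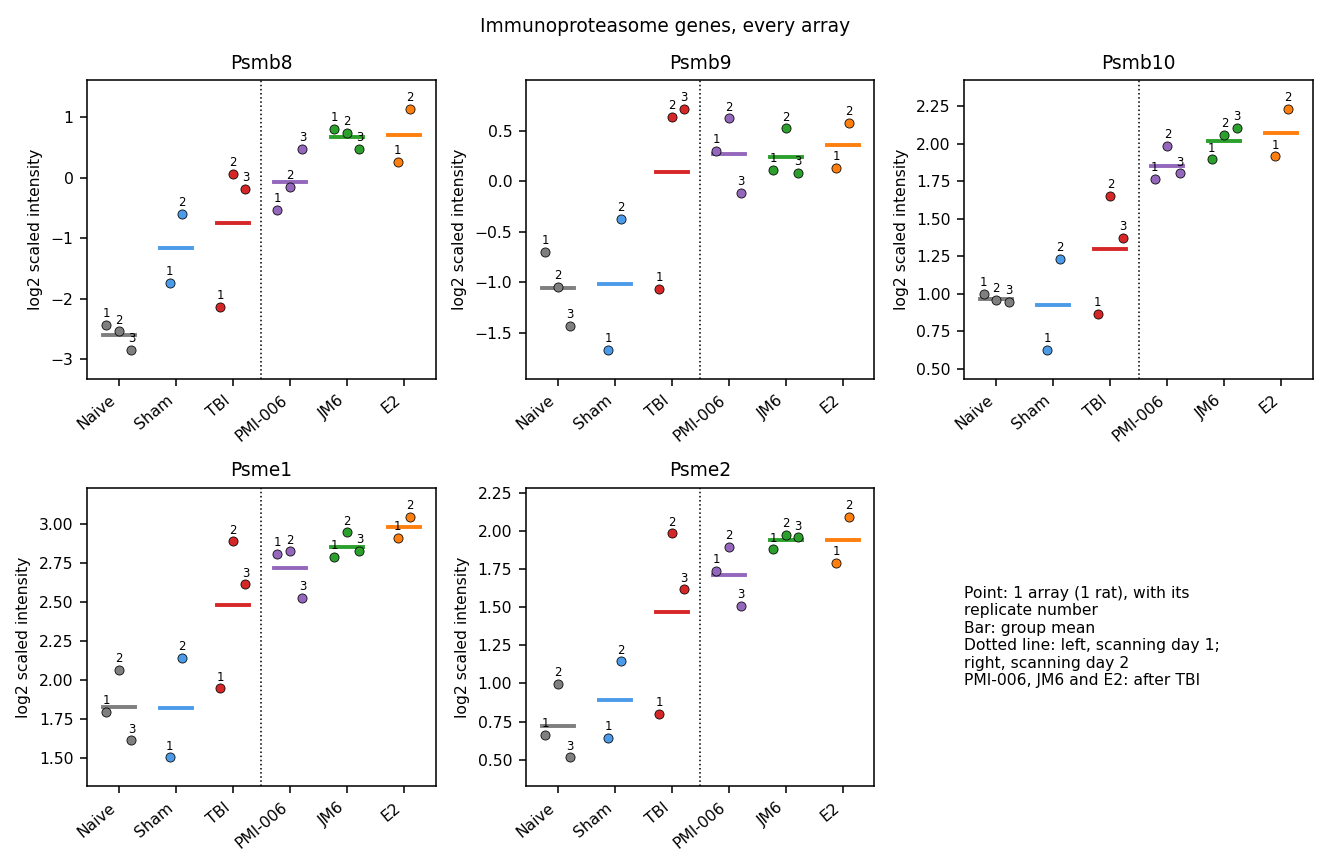
Levels of the 5 immunoproteasome genes on each of the 16 arrays, as log2 intensity over the array's 75th percentile; points are single rats with their replicate numbers, bars are group means, and the dotted line parts the scanning days. TBI rat 1 lies within the range of the uninjured rats for each gene, TBI rats 2 and 3 lie above it, and all 8 drug arrays lie above it too.

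The spread of these genes within groups differed between the scanning days. The pooled within-group SD over the Naive, Sham and TBI arrays had a median of 0.444 log2 for the 5 inducible genes, with a range of 0.318 to 0.856. It was 0.184 for the constitutive genes and 0.316 for all tested probes. Over the 8 drug arrays the medians in the same order were 0.16, 0.238 and 0.281, the lowest for the inducible genes. TBI rat 1 was the lowest of the 3 injured rats in all 5 inducible genes. The same held for 29 of the 39 constitutive genes with 3 TBI values, and for 9657 of 22622 tested probes. Leaving out TBI rat 1 changed the calls. Psmb9, Psme1 and Psme2 then rose against Sham by 1.70, 0.93 and 0.91 (limma, adjusted p = 0.0126, 0.0183 and 0.0217). Against Naive, Psmb8, Psmb9, Psme1 and Psme2 rose by 2.55, 1.74, 0.93 and 1.08 (limma, adjusted p = 0.00242, 0.0129, 0.0212 and 0.0112). In those fits 17.8% and 8.94% of all tested probes were called. TBI rat 1 is singled out after its values in these genes were seen, so those p-values are not independent support. Without TBI rat 2 or TBI rat 3, 0 inducible genes were called in either comparison, beside 1.29% to 3.02% of all tested probes. Leaving out Sham rat 1 lowered the differences from Sham to -0.15 for Psmb8, 0.47 for Psmb9, 0.0667 for Psmb10, 0.34 for Psme1 and 0.32 for Psme2. Leaving out 1 rat at a time, Psmb9 ran from 0.47 to 1.77, the highest without Sham rat 2, and Psmb10 from 0.0667 to 0.67.

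Marker lists of cell types were read beside these genes, and their part in the differences was not tested. The summed level of 12 blood leukocyte genes, on a linear scale, was 0.160 to 0.243 in Naive, 0.351 to 0.543 in Sham and 0.705 to 3.35 in TBI rats. TBI rat 1 had the lowest of the 3 TBI sums, and rats 2 and 3 had 3.35 and 1.82. A linear sum is carried by its brightest genes. In TBI rat 2 these were S100a9 (0.86 log2), S100a8 (-0.02) and Ptprc (-1.33), and in TBI rat 1 the brightest was Cd3e (-1.98). Between 5 and 7 of these 12 genes were above background on the TBI arrays, against 2 to 3 on the Naive and 4 to 5 on the Sham arrays. Mpo was above background on 0 of 16 arrays, and Cd2, Cd3g and Ms4a1 on 0 of the 8 arrays without a drug. The summed level of 10 microglial genes, all above background on every array, was 14.1 to 16.5 in Naive, 14.8 to 24.9 in Sham and 22.4 to 24.8 in TBI rats. This sum was 22.4, 24.1 and 24.8 in TBI rats 1 to 3 and 24.9 in Sham rat 2. Of the called genes, S100a8 and S100a9, calprotectin genes of neutrophils and monocytes, rose against Sham. Of the 4 microglial calls against Sham, Cd68 and Itgam were higher and P2ry12 and Tmem119 lower. These genes are named after their values were seen. For P2ry12 and Tmem119 both Sham rats lay above all Naive rats. Against Naive, 1 of 10 microglial and 4 of 10 tested leukocyte genes were called, all higher, beside 4.71% of all tested probes. Against Sham, all 5 neuronal genes (median -0.74) and all 5 oligodendrocyte genes (-0.75) had lower means in TBI. So did all 5 hippocampal field genes (-0.59) and all 4 tested choroid plexus genes (-3.25). Of these lists 1, 2, 0 and 0 genes passed the test, beside 9.41% of all tested probes. Against Naive the medians in that order were -0.25, -0.42, -0.29 and -1.735, and 0 genes passed. For Sham against Naive the medians were 0.59, 0.52, 0.65 and 1.77, so Sham itself stood above Naive. The summed choroid plexus level was 121.6 in Sham rat 1 and 4.90 in Sham rat 2. In bulk tissue, more cells of a type and more RNA per cell cannot be told apart.

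The ratio of an inducible subunit to its constitutive counterpart on the same array does not change when an array is divided by a constant. The counterparts themselves moved little. Psmb5 read 2.70 to 3.15 in Naive, 3.12 and 3.38 in Sham, and 2.88, 3.21 and 3.13 in TBI rats. Psmb6 read 1.64 to 2.11 in Naive, 2.003 and 2.37 in Sham, and 1.89, 2.26 and 1.95 in TBI rats, and Psmb7 read 2.08 to 2.36, 2.49 and 2.42, and 2.40, 2.54 and 2.35. The groups overlapped for Psmb5 and Psmb6. The log2 ratio of Psmb8 to Psmb5 averaged -3.82 with an SD of 1.04 over the 3 TBI rats and -5.06 with an SD of 0.70 over the 5 uninjured rats, a difference of 1.24 (exact permutation test, two-sided, p = 0.107). For Psmb9 to Psmb6 the difference was 1.12 (exact permutation test, p = 0.107), and for Psmb10 to Psmb7 it was 0.21 (exact permutation test, p = 0.393). Adjusted over the 3 ratios, the exact p-values were 0.161, 0.161 and 0.393, and the smallest p this design allows is 0.0357. The uninjured rats pool Naive and Sham, which differed. Psmb8 to Psmb5 averaged -5.49 in Naive and -4.42 in Sham rats, so Sham stood between Naive and TBI. Psmb9 to Psmb6 averaged -2.95 in Naive, -3.21 in Sham and -1.94 in TBI rats, and Psmb10 to Psmb7 -1.22, -1.53 and -1.13. In each ratio TBI rats 2 and 3 lay above all 5 uninjured rats, and TBI rat 1 did not.

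**Figure D2:**
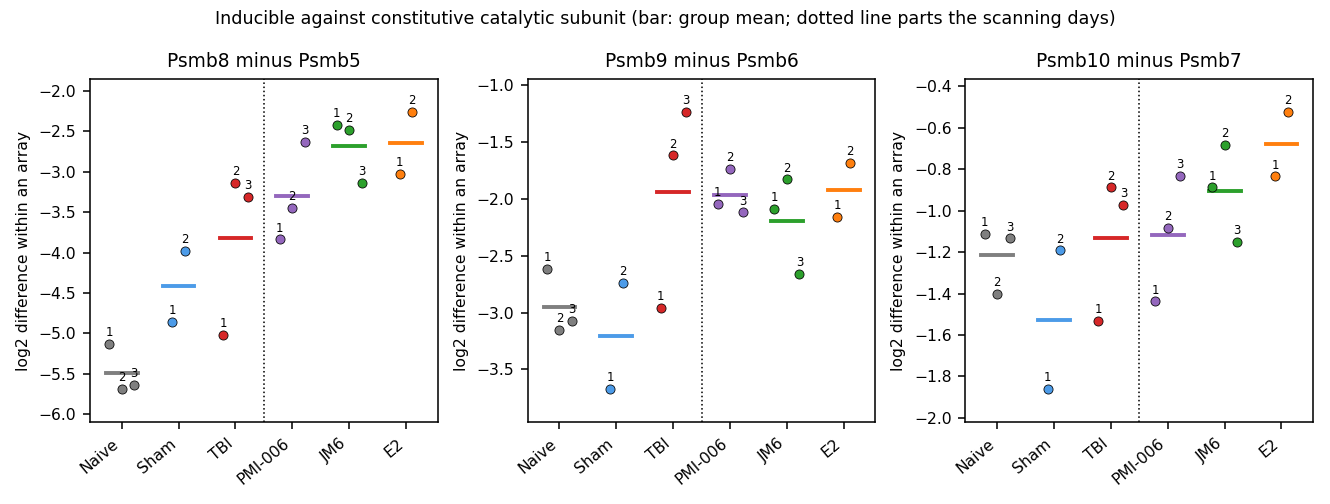
Difference in log2 level between an inducible catalytic subunit and its constitutive counterpart on the same array, by group; points are single rats with their replicate numbers, bars are group means, and the dotted line parts the scanning days. For Psmb8 and Psmb9, TBI rats 2 and 3 stand above the 5 uninjured rats and TBI rat 1 stands among them.

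The constitutive genes stayed close to the array as a whole after injury. Against Sham, 1 of the 44 members was called (adjusted p under 0.05), beside 9.41% of all tested probes, of which 2.93% were called higher. The median difference on the log2 scale was -0.03 over 39 constitutive genes, 0.57 over the 5 inducible genes and -0.03 over all tested probes. Against Naive, limma called 0 of 45 members, beside 4.71% of all tested probes, and the medians were 0.18, 0.74 and 0.04. At an unadjusted p under 0.05 limma counted 6 members against Sham, beside 26.0% of all tested probes, and 7 against Naive, all higher, beside 20.9%. The methods' unadjusted test, with a fold over 1.2, counted 3 and 2, beside 13.5% and 13.9%. The arrays of the groups did not overlap for 11 of 44 members against Sham, beside 41.4% of all tested probes, and for 9 of 45 against Naive, beside 22.9%. The 95% interval of the difference lay within 1 log2 unit of 0 for 35 of 44 members against Sham and for 37 of 45 against Naive.

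By role, the alpha ring, whose genes build the gate of the barrel, had a median of 0.05 against Sham and 0.21 against Naive over 7 genes. The constitutive beta ring, leaving out Psmb11, which was above background on no array of these groups, had a median of 0.25 against Naive, with 7 of 7 higher, and -0.0069 over 6 genes against Sham. The 6 cap ATPases, which unfold the substrate, had medians of 0.02 and -0.0039. The 11 non-ATPase cap subunits, some binding or trimming ubiquitin chains, had -0.18 against Sham, with 8 of 11 lower, and 0.13 against Naive. The 6 assembly chaperones had -0.13 and 0.34. No gene of these roles other than Psmg4 passed the test in either comparison.

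The called gene was Psmg4, which encodes a chaperone of early barrel assembly. It read -1.78 and -1.49 in Sham rats, -0.28, -0.34 and -0.51 in Naive rats, and 0.21, 0.90 and 0.53 in TBI rats, so the 3 groups did not overlap. It was 2.18 ± 0.37 (SE) higher in TBI than in Sham rats (limma, adjusted p = 0.0092), and 0.92 ± 0.33 higher than in Naive rats (adjusted p = 0.14). Its second probe, dimmer than the first, gave 0.80 against Sham (limma, adjusted p = 0.0902) and 0.87 against Naive (adjusted p = 0.0675). On that probe Sham differed from Naive by 0.07 and the Sham and Naive rats overlapped. The low Sham level of the first probe was thus not seen on the second. Without Sham rat 1 the adjusted p of the first probe was 0.062, with normexp background correction 0.11, in limma on the 2 groups alone 0.0983 and with the slide as a fixed block 0.247. Psme4, a cap activator, was chosen after its values were seen, because its probes disagreed. The brighter gave 0.55 against Sham and -0.06 against Naive, and the dimmer 0.999 and 1.02 (limma, adjusted p = 0.0253 and 0.0204).

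Slides could be compared only in part. No slide held both TBI and Sham arrays. On the slide that held the 3 TBI arrays and Naive rat 3, the 5 inducible genes were all higher in TBI, with a median difference of 0.95, beside 0.27 for the constitutive genes and 0.11 for all tested probes. With the slide as a fixed block, 0 members passed in either injury comparison. Anesthesia and preparation alone were covered by Sham against Naive. Limma called 1 of 44 members there, beside 8.08% of all tested probes, and the arrays did not overlap for 19 members, beside 38.9%. The called gene was Psmd13, a structural cap subunit, at 1.16 ± 0.27 (SE; limma, adjusted p = 0.0321). That value rests on Sham rat 1 (0.29) and on Naive rats 2 and 3 (-0.87 and -0.86), since the spots of Sham rat 2 and Naive rat 1 were flagged. The Sham arm thus held 1 array, and the SE and p use a spread estimated from the other groups. On the slide that held both Sham arrays and Naive rats 1 and 2, 25 of 39 constitutive genes and 2 of 5 inducible genes were higher in Sham. Over all Sham and Naive rats, Psmb8 was the inducible gene furthest from 0, at 1.44 ± 0.56 (SE; limma, adjusted p = 0.146), with both Sham rats above all 3 Naive rats.

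Genes that work with the proteasome were read from a list of ubiquitin and proteasome partners, whose median difference on the log2 scale was 0.05 over 25 genes against Sham and -0.03 over 24 genes against Naive. Of 12 class I antigen processing and interferon signalling genes, 8 had a higher and 4 a lower mean against Sham, with a median of 0.27. The test called 0 of them higher and 2 lower, beside 9.41% of all tested probes called. The 2 called lower, Canx and Pdia3, encode chaperones of the endoplasmic reticulum that fold many proteins. Both are named after their values were seen. Canx read -4.73, -4.92 and -4.71 in Naive, -1.89 and -1.67 in Sham, and -3.51, -4.76 and -4.91 in TBI rats. Pdia3 read -0.68, -0.42 and -0.62, then 0.61 and 0.21, then -0.997, -0.14 and -0.44 in the same groups. For both genes the Sham rats lay above all Naive and TBI rats. Against Naive all 12 had a higher mean, with a median of 0.48, and 1 was called, beside 4.71% of all tested probes. It was Irf9, a part of the interferon-driven factor that binds ISRE, at 1.23 (limma, adjusted p = 0.0121). Irf9 read -2.36, -2.16 and -2.17 in Naive, -1.40 and -1.24 in Sham, and -1.05, -0.80 and -1.17 in TBI rats. Both Sham rats thus also lay above the Naive rats. In Sham against Naive, 10 of the 12 had a higher mean and 3 were called, beside 8.08% of all tested probes. Tap1, the neighbour of Psmb9, read -4.28, -4.09 and -4.50 in Naive, -4.85 and -3.92 in Sham, and -3.80, -2.67 and -2.92 in TBI rats. All 3 TBI rats lay above all 5 uninjured rats, TBI rat 1 by the least, and the fold changes were 1.26 against Sham (limma, adjusted p = 0.11) and 1.16 against Naive (adjusted p = 0.135).

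Against TBI, the drug groups had more proteasome calls than the injury, all of them higher, in a setting where most of the array was higher. JM6 had 24 of 45 members called, beside 70.1% of all tested probes (69.9% called higher). PMI-006 had 18 of 45, beside 56.7% (56.7% higher), and E2 had 18 of 45, beside 70.3% (70.2% higher). The array as a whole was shifted, with medians of 0.99, 0.79 and 1.08 log2 over the tested probes. The constitutive genes lay below that shift, with medians of 0.50, 0.38 and 0.36, and so did the inducible genes, with 0.47, 0.25 and 0.50. The 3 comparisons share the TBI arrays and cannot be told apart from the scanning day. The direction turned with the scaling: dividing each array by the 75th percentile of all its probes, dim ones included, left 3 members called higher and 16 lower for JM6, 2 and 14 for PMI-006, and 2 and 23 for E2. Under that scaling 43.8%, 35.8% and 40.4% of all tested probes were called, 6654 of 9988, 5428 of 8165 and 6454 of 9222 of them higher.

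The size of the difference went with the brightness of the probe. Across the 45 members the correlation of log2 intensity with log2 fold change was -0.71 for JM6, -0.68 for PMI-006 and -0.71 for E2 (Pearson; Spearman -0.57, -0.54 and -0.57), and across all tested probes it was -0.58, -0.57 and -0.64. These are correlations across genes measured on the same arrays, which are not independent replicates. The 22 brighter members had medians of 0.34, 0.23 and 0.26, and the 23 dimmer members 0.84, 0.67 and 0.78. All but 1 member were brighter than the median tested probe. Among the 8146 tested probes in the range of intensity of the other 44 members, the medians were 0.59, 0.44 and 0.61.

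**Figure D3:**
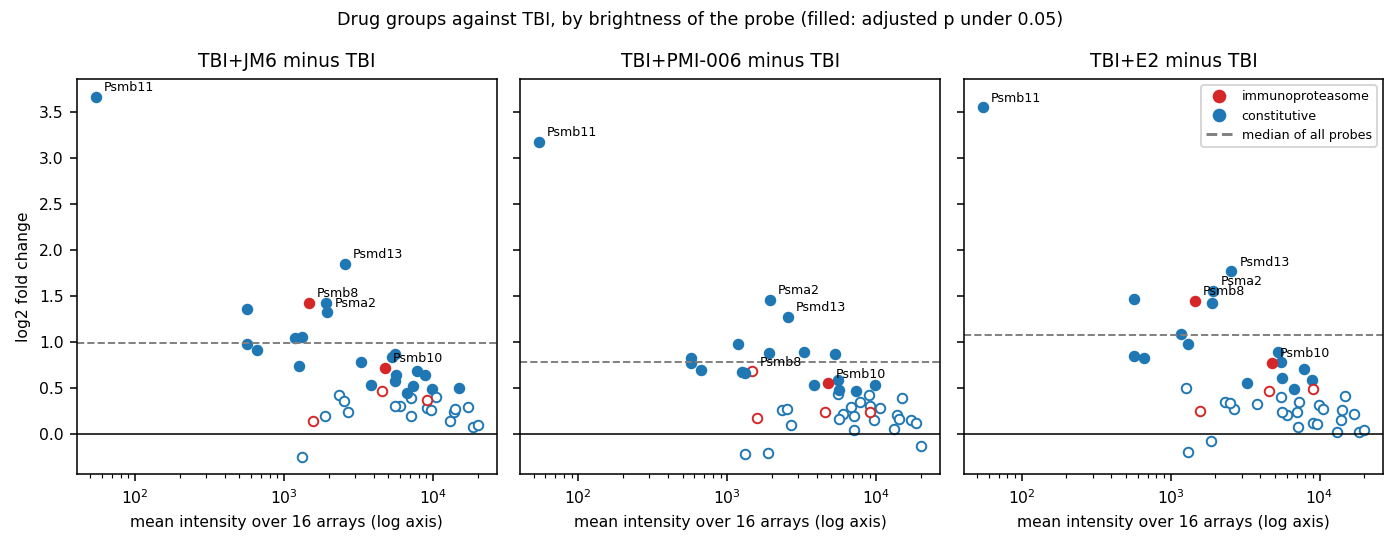
Log2 fold change of each member in a drug group against TBI, plotted against the mean intensity of its probe over 16 arrays on a log axis; red points are immunoproteasome genes, filled points passed the test, and the dashed line is the median of all tested probes. Dimmer members lie higher, with Psmb11 at the top left at its fitted value, which is not the bound given in the text, and most members lie under the dashed line.

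Among the constitutive genes, Psmb11 and Psmd13 had the largest rises for JM6 and for E2, and Psmb11 and Psma2 for PMI-006. Psmb11 encodes the catalytic subunit of the thymus-specific proteasome. Its probe was well above background on 0 of the 8 arrays without a drug and on all 8 drug arrays. The intensities were 4.24 to 15.2 and 72.7 to 130 (129.8 at most), in the range in which the dimmest spike-in control probes also read higher on the drug arrays. It passed the filter on dim probes only through the drug groups. The bound, set at the dimmest probe well above background on each TBI array, was at least 4.50-fold higher for JM6, 3.20-fold for PMI-006 and 4.16-fold for E2. The fit's adjusted p (limma, 1.43e-05, 7.07e-05 and 4.64e-05) belongs to the measured means, -3.80, -4.29 and -3.91 against -7.46 in TBI, and not to the bound. Psmd13 read -0.69 and -0.38 on 2 TBI arrays, with the third flagged, and 0.55 to 1.57 on all 8 drug arrays. It was 1.84 ± 0.20 higher in JM6 (limma, adjusted p = 4.6e-05) and 1.77 ± 0.22 higher in E2 rats (adjusted p = 0.000118). Psma2, an alpha ring subunit, read -0.20, -0.30 and -1.12 in TBI rats and 1.31, 1.15 and 0.29 in PMI-006 rats, a difference of 1.46 ± 0.38 (limma, adjusted p = 0.00923). 0 constitutive genes were called lower in any drug group.

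By role, JM6 had calls in 5 of 7 alpha ring genes, 3 of 8 beta ring genes, 3 of 6 ATPases, 8 of 11 non-ATPase cap subunits and 2 of 6 chaperones. For PMI-006 the counts in the same order were 4, 3, 2, 5 and 2, and for E2 they were 3, 2, 2, 7 and 1. Psmb11, which passed the filter only through the drug groups, is among the beta ring calls in each comparison. The shares of all tested probes called in these comparisons were the 70.1%, 56.7% and 70.3% given above, and no role is read as standing apart from them. Of the 2 cap activators, Psme3 was called higher in all 3 comparisons and Psme4 in 0.

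Psmb8 read -0.53, -0.15 and 0.48 in PMI-006 rats, 0.80, 0.74 and 0.47 in JM6 rats, and 0.26 and 1.13 in E2 rats. It was higher than in TBI for JM6 by 1.42 ± 0.50 (limma, adjusted p = 0.0236) and for E2 by 1.45 ± 0.56 (adjusted p = 0.0354). Without TBI rat 1 these values were 0.73 and 0.75 (limma, adjusted p = 0.105 and 0.121), and the calls were lost in 11 of 20 and 10 of 19 alternatives. Psmb10 read 1.76, 1.99 and 1.80, then 1.90, 2.06 and 2.11, then 1.92 and 2.23 in the same groups. It was called in all 3, at 0.72, 0.55 and 0.78 for JM6, PMI-006 and E2 (limma, adjusted p = 0.0087, 0.0394 and 0.011). These Psmb10 calls held in 15 of 20, 6 of 20 and 11 of 19 alternatives, and the sign turned in 1, 2 and 2. The JM6, PMI-006 and E2 arrays all lay above all 3 TBI arrays for Psmb10. Most of the array was parted likewise: the groups did not overlap for 16437, 14115 and 19197 of the 22827 tested probes. Probes with a flagged value in either group are not in these counts. Without TBI rat 1, 1 inducible gene was called for JM6, 0 for PMI-006 and 1 for E2, beside 63.1%, 50.9% and 64.4% of all tested probes. Without TBI rat 2 the counts were 3, 1 and 4, beside 70.5%, 56.8% and 71.0%.

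Psmb9, Psme1 and Psme2 were called in none of the 3 drug comparisons. Psmb9 read 0.30, 0.62 and -0.11 in PMI-006 rats, 0.11, 0.52 and 0.08 in JM6 rats, and 0.13 and 0.57 in E2 rats. Psme1 read 2.81, 2.83 and 2.53, then 2.79, 2.95 and 2.83, then 2.91 and 3.05, and Psme2 read 1.74, 1.90 and 1.51, then 1.88, 1.98 and 1.96, then 1.79 and 2.09. All of these drug arrays lay above TBI rat 1, and for Psmb9 all of them lay below TBI rats 2 and 3. Under quantile normalization the median of the 5 inducible genes against TBI was -0.09 for JM6, -0.13 for PMI-006 and -0.01 for E2.

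All 8 drug arrays lay above all 5 uninjured arrays for each of the 5 inducible genes, and for 17 of 40 constitutive genes, beside 51.4% of all tested probes. After quantile normalization this held for 3 of 5 inducible genes and 4 of 40 constitutive genes, beside 11.8% of tested probes. The summed level of the 12 leukocyte genes on the drug arrays was 1.89 to 4.19, and that of the microglial genes 21.3 to 29.3. The part of these cells in the levels was not tested.

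The drug groups did not differ from each other in any member that passed the test. Limma called 0 of 45 members for JM6 against PMI-006, JM6 against E2 and PMI-006 against E2, beside 0.0131%, 0.0175% and 0.11% of all tested probes. At an unadjusted p under 0.05 it counted 4, 0 and 3, beside 8.84%, 2.81% and 15.0% of all tested probes. The methods' unadjusted test counted 3, 0 and 4, beside 6.81%, 2.71% and 15.0%. The 3 groups received different doses, E2 by injection and the others by mouth, and no order of strength is read from these values. The 95% interval of the difference lay within 1 log2 unit of 0 for 38, 40 and 38 of the 45 members, with a median half-width of 0.42 to 0.47. On the slide that held JM6 rats 2 and 3 and both E2 rats, 37 of 40 constitutive genes were higher in JM6, with a median of 0.19, against -0.01 for all tested probes. On the slide with the 3 PMI-006 rats and JM6 rat 1, 12 of 40 were higher in JM6, with a median of -0.05.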

How the data were processed

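Single-colour Agilent rat arrays of 16 hippocampi were analysed. The authors deposited scanner files whose spot intensities had been background-subtracted and detrended within each array by Agilent Feature Extraction, with flags for outlier spots and no normalization between arrays. They also deposited a value table, a linear ratio to a reference level of the array. All its columns had a median of 0.14 and a 75th percentile of 1, and they correlated at 0.981 to 0.999 with the log2 scanner signal. How the table came to have the same distribution on every array is not given in the sources used here. Probe positions are on rn4. RNA was amplified with either of 2 kits, and which kit served which rat is not given either.

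Spots flagged as non-uniform or as population outliers were dropped, and the remaining spots of a probe averaged. Following the study's methods, the scale of an array was its 75th percentile over probes well above background, and log2 values were taken. A probe was tested if it was above background throughout any 1 group (22827 of 30367 probes). Limma 3.58.1 in R 4.3.3 was fitted once over the 16 arrays without intercept (10 residual degrees of freedom), with Benjamini-Hochberg adjustment over all tested probes and calls at an adjusted p under 0.05. The ratios were tested with exact permutation tests (SciPy 1.17.1). The limma step was tested on simulated data. Limma p-values set a difference of group means against the spread between rats within groups, pooled over all groups and both scanning days. The ratio p-values come from exchanging rats between TBI and the pooled Naive and Sham rats. The number of arrays limits the precision.

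The members, lists and naming rule were chosen with earlier results of these data known. By that rule, values in every sample were given for the inducible genes and Psmb5, Psmb6 and Psmb7, and the called constitutive genes of largest change were named, up to 3 each way, or 2 for Sham against Naive and for drugs against TBI. Alternatives covered background correction, scaling, filter, test, slide, replicate number, probe choice and each left-out rat. On the array were 25 of 28 listed partners and 12 of 13 class I genes. Besides the lists in the results, calls against Sham were 0 of 5 tested astrocyte genes and 1 of 6 endothelial genes, which was lower. The calls of the partner list are not reported here.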

Additional observations from a re-analysis of the deposited data

How the results depend on the processing

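The count of proteasome genes called was 1 against Sham, 0 against Naive, 1 for Sham against Naive, and 24, 18 and 18 for JM6, PMI-006 and E2 against TBI. Normexp background correction gave 0 against Sham and 0 for Sham against Naive, and 12, 2 and 8 for the drugs, with 0.0175%, 0.0614%, 21.5%, 6.29% and 14.0% of all tested probes called; percentages in parentheses below give that share in the same order. Quantile normalization gave 3 for Sham against Naive, now mostly lower, and 4, 3 and 7 for the drugs, the 7 of E2 mostly lower (5.76%, 27.2%, 19.2% and 20.4%). The 75th percentile over all probes gave 2 against Sham, 4 for Sham against Naive, and 19, 16 and 25 for the drugs, mostly lower (12.4%, 10%, 43.8%, 35.8% and 40.4%). Scaling to the spike-in controls gave 2 against Naive, 0 for Sham against Naive, and 3, 1 and 2 (3.57%, 1.79%, 25.1%, 14.5% and 19.9%). The authors' table gave 3 against Sham, 3 for Sham against Naive, mostly lower, and 5, 4 and 7, the 7 of E2 mostly lower (8.55%, 6.44%, 27.0%, 19% and 20.6%). Removing the trend on GC content gave 1 against Naive (4.64%), and keeping only probes above background on all 16 arrays gave 0 against Sham and 1 against Naive (15.4% and 8.82%). Without a filter, Sham against Naive had 0 (4.18%). The methods' unadjusted test gave 3 against Sham, 2 against Naive, 4 for Sham against Naive, 3 for JM6 against PMI-006 and 4 for PMI-006 against E2 (13.5%, 13.9%, 16%, 6.81% and 15.0%). After adjustment it gave 0 against Sham, 0 for Sham against Naive, and 12 and 9 for JM6 and PMI-006 (0.00439%, 0%, 52.0% and 35.5%). Limma on the 2 groups alone gave 0 against Sham, 0 for Sham against Naive and 11 for PMI-006 (0.0439%, 1.33% and 49.1%). The slide as a fixed block gave 0 against Sham and 0 for Sham against Naive, (0.136% and 0.0658%), and as a random block 1 against Naive (7.01%). Averaging a gene's probes gave 2 against Sham (9.43%). The cause was not tested.

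With the replicate number as a replicate block, 1 gene was called against Sham, 1 against Naive (Psmb8, adjusted p = 0.0346 in limma), 24 for JM6, 16 for PMI-006 and 16 for E2 (6.77%, 5.80%, 70.6%, 56.7% and 68.0% of tested probes). The numbers do not pair the rats: correlations of the deviations of same-numbered rats ran from -0.185 to 0.182, with 3 of 22 over 0.1.

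Leaving out 1 rat at a time gave 0 to 4 calls against Sham, 0 to 4 against Naive, 0 to 1 for Sham against Naive, 16 to 27 for JM6, 10 to 19 for PMI-006, 11 to 19 for E2 and 0 for each pair of drugs. The share of all tested probes called ran over 1.64% to 17.8%, 1.24% to 8.94%, 2.12% to 6.55%, 58.6% to 70.5%, 44.7% to 58.7% and 49.7% to 71.0% in the first 6. The 4 came without TBI rat 1, the 0 against Sham without Sham rat 1 and the 0 for Sham against Naive without Naive rat 2 or 3 or either Sham rat. PMI-006 had 11 without TBI rat 1, TBI rat 3 or its own rat 1 and 10 without its rat 2, and E2 had 11 without its rat 2. The lone Sham or E2 array of such fits was assumed to vary like the other groups. The ratio differences ran from 0.89 to 1.84 for Psmb8 to Psmb5, 0.76 to 1.62 for Psmb9 to Psmb6 and 0.08 to 0.41 for Psmb10 to Psmb7. With normexp, Psmb9 to Psmb6 gave 1.24 (exact permutation test, p = 0.0357, the smallest possible). Psmb8 against Sham ran from -0.15 to 1.11. Psmb10 against TBI turned to -0.0663, -0.0921 and -0.0558 for JM6, PMI-006 and E2 with the 75th percentile over all probes, and to -0.13 and -0.0641 for PMI-006 and E2 with the spike-in scaling.

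Groups of 2 or 3 rats limit what these arrays can show, and Psmb11 lay too close to background on 8 arrays to give more than a bound.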
